A study of Mus musculus with 4 samples.

Results

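The epidermal differentiation complex is a cluster of genes whose products build the outer envelope of the dying keratinocyte. The genes were taken by symbol: all named Sprr, Lce or S100a, with Lor, Ivl, Flg2, Hrnr, Rptn, Tchh, Tchhl1, Crct1, Crnn and Smcp. Of 19938 genes with a value, 56 were members, and all 56 lie on mouse chromosome 3 in the RefSeq annotation of GRCm38.p6. They comprise 13 Lce1, 5 Lce3, 1 Lce6, 9 Sprr2, 4 other Sprr and 14 S100a genes, 6 fused S100 genes and 4 others. The values came from 4 Affymetrix whole-transcript arrays of total RNA from whole skin of female mouse embryos at E17.5, 2 arrays per group and 2 mice per array. Control mice carried TRE-Ovol2-Flag, a tetracycline-responsive transgene, with no driver, or were wild type, and their strain is labelled CB6F1. Ovol2 BT mice carried TRE-Ovol2-Flag together with K5-tTA, a transactivator under a keratin 5 promoter, and are labelled FVB/N. Although the mice are described as littermates, strain and genotype cannot be told apart from the labels. The keratin 5 promoter drives the transgene in basal keratinocytes, whereas most members are known to be expressed in the layers above it.

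As keratinocytes move outwards they stop dividing, fill with keratin filaments and finally replace their membrane by the cornified envelope, a sheet of proteins cross-linked by transglutaminases. Involucrin (Ivl) and the small proline-rich proteins (Sprr) enter this sheet early, loricrin (Lor) forms most of it, and the late envelope proteins (Lce) are added last. The fused S100 proteins, such as filaggrin-2 and hornerin, bundle and fill the keratin matrix, and the S100a proteins are small calcium sensors with uses in many cell types. Ovol2 belongs to a family of zinc finger repressors in epithelial cells, and the arrays address epidermal differentiation when it is overexpressed.

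Ovol2 itself had intensities of 360 and 161 for control and 4367 and 3893 in Ovol2 BT (log2 difference 4.0, SE 0.325, limma adjusted p = 0.00309). The median intensity of all probe sets lay between 123 and 132 in the 4 arrays. The suprabasal keratin gene Krt1 had 11944 and 10110 for control and 10224 and 9371 for Ovol2 BT, and Krt10 had 10654 and 9152 against 9303 and 8733. Both markers were bright in every array. Of 13 tested genes in a list of the spinous layer, which holds both, 11 had lower values and 2 higher, beside 55.6% of all genes lower. The list held 1 call, Serpinb2, at 426 and 514 for control and 113 and 180 in Ovol2 BT (-1.61, limma adjusted p = 0.0213). Krt77, at 1.35, was not called. Summed over 16 fibroblast genes, intensities of 77882 and 75211 for control and 78466 and 74720 in Ovol2 BT overlapped. Summed over 19 genes of the basal layer, they were 37785 and 37019 against 23079 and 22622. Of these 19 genes 4 were called lower, Krt5, Krt14, Krt15 and Aqp3, while Itga6, at -0.05, and Itgb1, at 0.03, were among those not called. In whole skin, fewer cells of a type and less RNA per cell cannot be told apart.

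Among the members, 2 were higher in Ovol2 BT skin by the test, Lce3c and S100a1, and none was lower. Differences below are of log2(intensity + 16), Ovol2 BT minus control, and a gene was called at a limma adjusted p under 0.05 over all 14953 genes tested. The test included 46 members, and 10 stayed out because their mean level was in the lowest 25% of all genes. The 2 calls were 4.35% of the tested members, beside 0.963% of all tested genes, and 0.615% of all genes were called higher and 0.348% lower. At an unadjusted p under 0.05 there were 5 members higher and 7 lower, beside 5.12% and 5.25% of all genes. In 23 of the 46 members the 2 groups did not overlap, 10 with both Ovol2 BT arrays above the controls and 13 below. Of all genes 42.3% did not overlap, 20.4% above and 21.9% below. The median difference of the tested members was -0.13 and that of all tested genes -0.04. The number of calls rested on the arrays used: it was 5 without control replicate 2, with 3 of them lower, and 4 with Ovol2 BT replicate 2 left out. The count was 6, with 4 higher and 2 lower, when arrays were centred on cell junction genes, where 439 of all genes were called higher and 83 lower against 92 and 52 as deposited. The median of the members was 0.06 without control replicate 1.

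**Figure D1:**
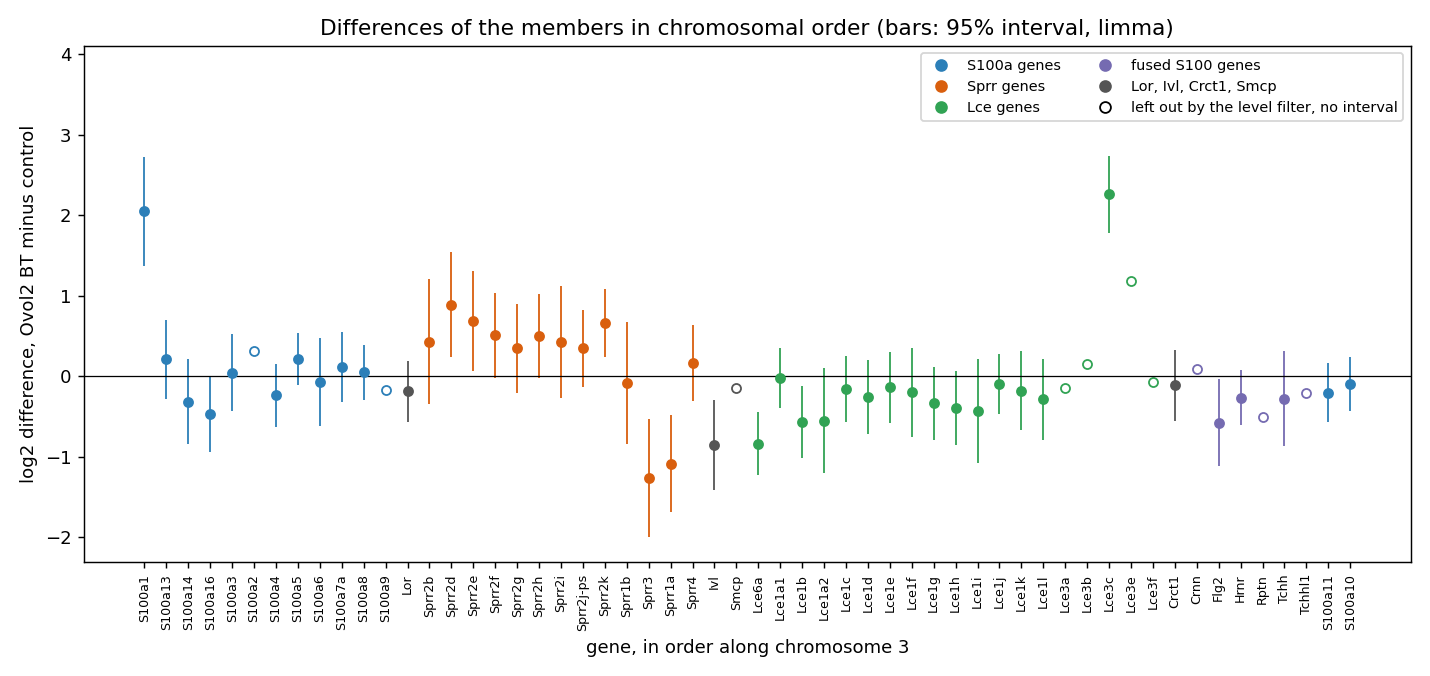
The log2 difference of each member, Ovol2 BT minus control, in the order of the genes along chromosome 3; bars are 95% intervals from limma and open circles are the 10 members left out by the level filter. Lce3c and S100a1 stand apart at 2.26 and 2.05, the 9 Sprr2 genes have values above 0, and the 13 Lce1 genes have values below 0, of which 6 turn above 0 when arrays are centred on cell junction genes.

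Lce3c had by far the smallest p-value of the members, ranking 9 among all genes tested. It encodes a late cornified envelope protein of the Lce3 group, whose members are known to be induced when the skin barrier is disturbed. Its probe set (10493900) had intensities of 172 and 156 for control and 788 and 908 in Ovol2 BT. Both Ovol2 BT arrays were far above both controls, and replicates of each group lay close together. The rise was 2.26 on the log2 scale (SE 0.21, 95% interval 1.78 to 2.73, 4.78-fold, adjusted p = 0.00344), and it lay between 2.16 and 2.36 with any 1 array left out.

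The other Lce3 genes measured alone were near the bottom of the scale. Lce3a had intensities of 37.5 and 34.3 for control and 35.7 and 26.3 in Ovol2 BT. Lce3b was at 45.2 and 51.8 against 57.1 and 53.7, and Lce3f at 38.9 and 34.1 against 39.0 and 29.6. These 3 genes were not tested, and at such levels the arrays carry little information on them. Lce3e was listed at 43.5 and 11.5 for control and 43.8 and 124 in Ovol2 BT, where 1 array alone was high, and it was not tested. A further probe set, which the annotation assigns to Lce3a, Lce3b, Lce3c, Lce3d, Lce3e and Lce3f together, had 501 and 549 against 1124 and 1067. Since that probe set can bind transcripts of several Lce3 genes, its difference cannot be credited to one of them. Cross-binding between these paralogs was not tested for Lce3c either.

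The stretches before the starts of Lce3c and Lce3e are shown because they are the most alike of the Lce3 group, while only Lce3c had a clear signal. Both run 5′ to 3′ on the plus strand and end at the base before the start, Lce3c at chr3:92944236-92944485 and Lce3e at chr3:92966811-92967060 (RefSeq, GRCm38.p6). Capitals mark a TATAAA match, which in Lce3e lies far from the start and on the opposite strand.
Lce3c: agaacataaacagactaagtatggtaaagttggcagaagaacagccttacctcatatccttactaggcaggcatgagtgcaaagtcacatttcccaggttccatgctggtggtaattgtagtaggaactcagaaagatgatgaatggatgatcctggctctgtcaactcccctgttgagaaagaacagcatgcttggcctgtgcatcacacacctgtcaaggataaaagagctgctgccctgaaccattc
Lce3e: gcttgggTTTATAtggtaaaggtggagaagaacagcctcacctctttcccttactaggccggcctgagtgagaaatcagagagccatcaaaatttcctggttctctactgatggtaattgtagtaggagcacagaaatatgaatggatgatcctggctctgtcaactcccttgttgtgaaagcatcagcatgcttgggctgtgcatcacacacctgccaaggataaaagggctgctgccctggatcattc
Over 250 bases the stretches of Lce3c and Lce3e were 81.6% identical in a global alignment, whereas the 10 pairs of Lce3 genes had a median identity of 61.0%.

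The 13 Lce1 genes, abundant late envelope genes, had slightly lower values in Ovol2 BT, and none was called. Their differences ran from -0.57 to -0.02 with a median of -0.25. The spread between controls was larger than that: control replicate 1 was above control replicate 2 in 13 of 13 genes, by a median of 0.43. In 10 of the 13 the controls differed from each other by more than the groups did. The same held for 50.7% of all tested genes and 47.8% of the tested members. Lce1b had the largest difference, with intensities of 4333 and 3231 for control and 2692 and 2356 in Ovol2 BT (-0.57, SE 0.20, adjusted p = 0.362). Its groups did not overlap, nor did those of Lce1g (2160 and 1821 against 1706 and 1440) and Lce1h (9055 and 5955 against 5875 and 5288). Lce1a1 had the smallest, with 7833 and 6237 against 7444 and 6392 (-0.02, 95% interval -0.39 to 0.36). Lce1i varied most between controls, at 2640 and 1462, with 1673 and 1263 in Ovol2 BT. The groups overlapped in Lce1a1, Lce1i and the remaining 8 genes. Without control replicate 1 the median was -0.004, with 6 genes above 0 and 7 below, and centring arrays on cell junction genes gave the same split; under quantile normalization or median centring 1 gene, Lce1a1, was above 0. Without control replicate 2 it was -0.46, and Lce1h was at -0.70.

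Lce6a, the member of its subfamily next to the Lce1 genes in chromosomal order, had intensities of 3722 and 3544 for control and 1956 and 2099 in Ovol2 BT. Its replicates lay close together and its groups were well separated. The difference of -0.84 (SE 0.17, 95% interval -1.23 to -0.45, adjusted p = 0.0743) missed the threshold. Lce6a was called under quantile normalization (-0.79, adjusted p = 0.0453) and with the lowest 50% of genes left out (adjusted p = 0.0429). It was not called under junction centring (-0.61, adjusted p = 0.181) or without a variance trend (adjusted p = 0.12). With any 1 array left out the difference lay between -0.89 and -0.79.

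**Figure D2:**
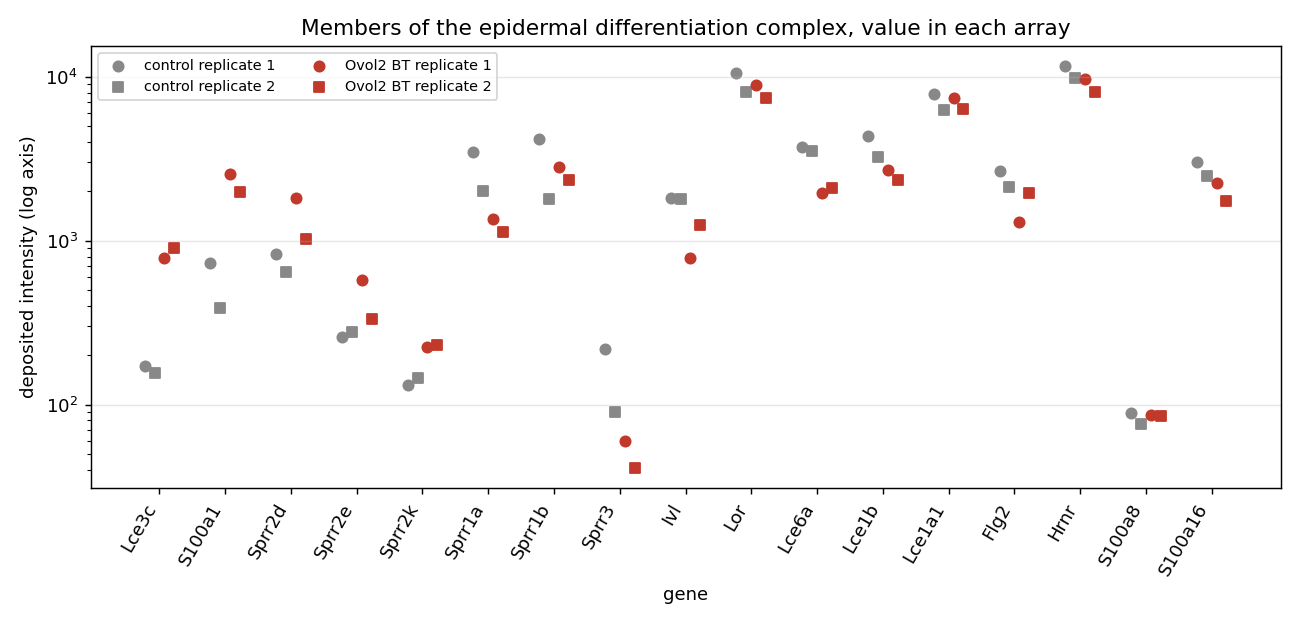
Deposited intensity (log axis) of 17 members in each array; grey marks are controls and red marks Ovol2 BT, circles replicate 1 and squares replicate 2. Lce3c goes from 172 and 156 to 788 and 908, and Lce6a from 3722 and 3544 to 1956 and 2099, while the marks of Lor and S100a8 overlap.

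The Sprr genes, whose small proteins bridge other envelope proteins, had values in different directions, and none was called. The Sprr2 genes were higher, while the other Sprr genes were mixed. All 9 Sprr2 genes had higher values in Ovol2 BT, with a median difference of 0.50 and a range of 0.35 to 0.89. Sprr2d had intensities of 829 and 645 for control and 1817 and 1030 in Ovol2 BT (0.89, SE 0.29, adjusted p = 0.313). Sprr2e had 257 and 278 against 579 and 332 (0.68, SE 0.27, adjusted p = 0.437). In both genes Ovol2 BT replicate 1 was clearly the higher of its pair, which held for 8 of the 9 genes. Sprr2k was the exception, at 131 and 146 against 226 and 230, with each group tight (0.66, SE 0.19, adjusted p = 0.227). The groups did not overlap in these 3 genes, in Sprr2f (145 and 132 against 257 and 161) and in Sprr2h (190 and 126 against 245 and 208). They overlapped in Sprr2b, Sprr2g, Sprr2i and the pseudogene Sprr2j-ps, where Sprr2i was at 192 and 229 against 409 and 200. Probe sets shared by several Sprr2 genes had overlapping groups: 1 that names Sprr2a1, Sprr2a2, Sprr2a3 and Sprr2b had 2930 and 2827 for control and 3068 and 2897 in Ovol2 BT (0.05), and 1 for Sprr2a1 and Sprr2a3 alone was at -0.02. Sprr2 genes are close copies, so signal may be shared between their probe sets.

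The values of the Sprr2 genes depended on Ovol2 BT replicate 1. Without it their median was 0.24, with 7 of 9 above 0. Without Ovol2 BT replicate 2 the median was 0.82 and Sprr2d was at 1.30. Sprr2b, at 147 and 71.0 against 202 and 102, had a difference of 0.88 without control replicate 1. Under quantile normalization, median centring and centring on junction genes all 9 kept values above 0, and under the last Sprr2d (1.11, adjusted p = 0.00565) and Sprr2k (0.89, adjusted p = 0.0296) were called.

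Sprr1a and Sprr3 pointed the other way. Sprr1a, an envelope precursor expressed in fetal and stressed epidermis, had intensities of 3458 and 2006 for control and 1352 and 1124 in Ovol2 BT. Sprr3, better known from the lining of the mouth and oesophagus, had 219 and 90 against 59.6 and 41.2. In both genes the groups did not overlap, and control replicate 1 was well above control replicate 2. The differences of -1.09 (SE 0.27, adjusted p = 0.144) and -1.26 (SE 0.32, adjusted p = 0.167) were not called. Without control replicate 2 they were -1.48 and -1.84, and without Ovol2 BT replicate 1 Sprr3 was at -1.46. Centring on junction genes called both, Sprr1a at -0.86 (adjusted p = 0.0422) and Sprr3 at -1.04 (adjusted p = 0.000965). Without control replicate 1 Sprr1a was at -0.70. In both Ovol2 BT arrays Sprr3 lay below the lowest level tested, so it entered the test through the controls. Sprr1b, next to Sprr3 in chromosomal order, had 4151 and 1802 in the controls, which enclosed the 2832 and 2360 of Ovol2 BT (-0.08, SE 0.34, adjusted p = 0.942). The sign of Sprr1b was not stable: it was at 0.52 without control replicate 1, -0.68 without control replicate 2, 0.05 without Ovol2 BT replicate 2 and 0.14 under junction centring. Sprr4 had 318 and 353 against 358 and 401 (0.17, SE 0.21), so both Ovol2 BT arrays were above the controls, by a small margin.

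The stretches before the starts of Sprr2d, Sprr2k and Sprr1a are shown because they carry the same short matches while the genes' values lay on opposite sides of 0. Each is 5′ to 3′ on the gene's own strand and ends at the base before the start: Sprr2d at chr3:92338890-92339139 and Sprr2k at chr3:92432332-92432581 on the plus strand, and Sprr1a at chr3:92485882-92486131 on the minus strand (RefSeq, GRCm38.p6). Capitals mark TGANTCA, the letters of a site for AP-1 factors, and TATAAA, those of a TATA box.
Sprr2d: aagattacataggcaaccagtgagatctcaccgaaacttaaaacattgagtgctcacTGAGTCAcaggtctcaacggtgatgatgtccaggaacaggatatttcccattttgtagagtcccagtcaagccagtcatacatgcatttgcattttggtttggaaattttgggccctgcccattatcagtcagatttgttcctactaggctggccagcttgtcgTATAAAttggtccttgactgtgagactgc
Sprr2k: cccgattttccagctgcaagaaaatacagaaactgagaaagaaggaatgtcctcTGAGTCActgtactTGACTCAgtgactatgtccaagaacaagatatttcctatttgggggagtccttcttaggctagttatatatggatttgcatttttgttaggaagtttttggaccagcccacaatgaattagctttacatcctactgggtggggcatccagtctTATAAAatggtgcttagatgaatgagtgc
Sprr1a: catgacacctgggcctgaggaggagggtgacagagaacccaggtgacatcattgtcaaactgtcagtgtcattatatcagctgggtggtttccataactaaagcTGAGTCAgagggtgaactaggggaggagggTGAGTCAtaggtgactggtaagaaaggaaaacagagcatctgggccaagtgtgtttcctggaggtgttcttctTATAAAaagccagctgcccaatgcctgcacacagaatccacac
The letters were searched on both strands in the 250 bases before the start, and 49 of the 56 members had such a stretch. A member was counted once, with a match in any stretch of the gene, while the share of all stretches counts each stretch. TGANTCA was present in 17 of the 49 members and in 6.75% of all 32851 stretches. All 7 Sprr2 genes with a stretch held it, as did Sprr1a, Sprr1b, Ivl and Lor, whereas 0 of 12 Lce1 and 0 of 5 Lce3 genes did. The Sprr2 stretches resemble each other, with 61.6 to 89.6% identity between pairs, so their matches are not independent. TATAAA was present in 21 of the 49 members, among them all 7 Sprr2 genes, and in 12.4% of all stretches. CCGTTA, the core letters of a site for Ovol proteins, was in 0 of the 49 members and in 2.18% of all stretches. A match or its absence here says only which letters stand in this window.

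Of the single-copy envelope precursors, Lor had overlapping groups and Ivl had lower values, and neither was called. Lor had intensities of 10487 and 8121 for control and 8845 and 7428 in Ovol2 BT. Its groups overlapped and the difference was -0.19 (SE 0.17, 95% interval -0.57 to 0.19, adjusted p = 0.709), with 0.04 after centring on junction genes. Ivl, one of the first proteins laid down under the membrane, had 1820 and 1792 against 787 and 1253. Both Ovol2 BT arrays were below the controls but differed from each other, and the difference of -0.85 (SE 0.25, adjusted p = 0.245) was not called. It was -1.18 without Ovol2 BT replicate 2 and -0.52 without Ovol2 BT replicate 1. Crct1, a small cysteine-rich gene next to the Lce3 genes in chromosomal order, had 9324 and 6406 against 7870 and 6477 (-0.11, SE 0.20). Smcp, a gene of sperm mitochondria that lies in the cluster, was not tested, at 39.3 and 51.3 against 38.3 and 39.7.

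Among the fused S100 genes 3 of 6 were tested and none was called. Flg2, whose product resembles filaggrin, had intensities of 2657 and 2135 for control and 1300 and 1947 in Ovol2 BT (-0.58, SE 0.24, adjusted p = 0.450). Hrnr, which encodes hornerin, had 11628 and 9762 against 9660 and 8124 (-0.27, SE 0.15, adjusted p = 0.586). In both the groups did not overlap, by a small margin. Flg2 was at -0.29 without Ovol2 BT replicate 1. Tchh, which encodes trichohyalin of the inner root sheath of hair, had 79.7 and 161 against 90.9 and 91.4, so its controls spanned the Ovol2 BT values. Rptn, Crnn and Tchhl1 were below the level filter. Rptn was at 45.1 and 40.5 for control and 14.3 and 40.3 in Ovol2 BT, Crnn between 37.7 and 54.9 and Tchhl1 between 41.0 and 65.5 in the 4 arrays.

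Of the S100a genes, S100a1 alone was called among 12 tested. S100a1 encodes a calcium sensor known best from heart and skeletal muscle. Its probe set (10499854) had intensities of 731 and 387 for control and 2555 and 1978 in Ovol2 BT. The groups were far apart, although the controls differed from each other by 0.89 on the log2 scale. The rise was 2.05 (SE 0.30, 95% interval 1.37 to 2.72, 4.13-fold, adjusted p = 0.0156), and it lay between 1.60 and 2.49 with any 1 array left out. Genes of fat were higher in the same arrays. In a list of 20 adipocyte genes all 20 had higher values in Ovol2 BT and 13 were called. Of all tested genes 55.6% had lower values and 0.615% were called higher. The summed intensity of the list was 22028 and 15185 for control and 52548 and 51005 in Ovol2 BT, and the lowest single value was 25.7. Among the called genes, Cidea, Pck1, Lep and Ucp1 had mean control levels below the lowest level tested. They entered the test through the Ovol2 BT arrays. The 16 skeletal muscle genes also had higher values in 16 of 16, none of them called, with sums of 38413 and 39077 against 43470 and 50600. The part of fat or muscle tissue in the rise of S100a1 was not tested.

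**Figure D3:**
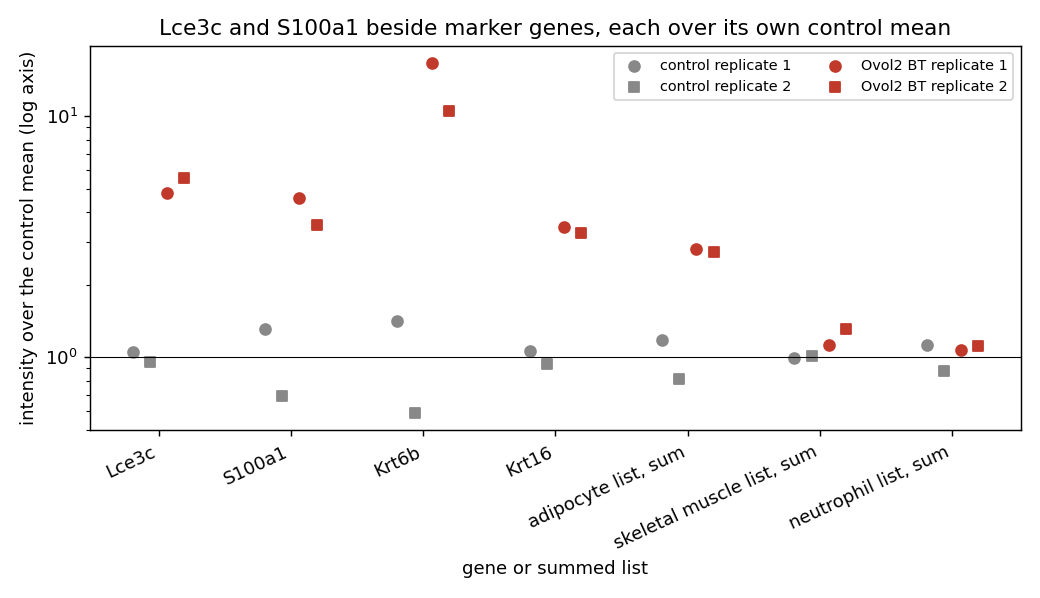
Intensity of Lce3c, S100a1, Krt6b and Krt16, and summed intensity of the adipocyte, skeletal muscle and neutrophil lists, each divided by its own mean over the 2 controls (log axis); grey marks are controls and red marks Ovol2 BT. Lce3c, S100a1, both keratins and the adipocyte and skeletal muscle sums are separated between the groups. The neutrophil sum, with 6 of its 12 genes below the level filter, overlaps.

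S100a8 and S100a9, the subunits of calprotectin, which inflamed keratinocytes and neutrophils make, stayed low. S100a8 had intensities of 89.4 and 75.8 for control and 86.9 and 84.9 in Ovol2 BT (0.05, 95% interval -0.29 to 0.39, adjusted p = 0.917). S100a9 had 64.8 and 71.2 against 42.9 and 77.8 and was not tested. For both genes the groups overlapped, and so did the sums of 12 neutrophil genes, at 1264 and 988 against 1209 and 1259. Of these genes 6 were below the level filter, and among the 6 tested 3 had higher and 3 lower values. The sums therefore carry little information on neutrophils. Of the 4 keratin genes of activated epidermis, 2 were called higher. Krt6b was at 267 and 111 for control and 3138 and 1993 in Ovol2 BT (3.73, SE 0.37, adjusted p = 0.00457), and Krt16 at 222 and 195 against 724 and 685 (1.69, SE 0.21, adjusted p = 0.00758). Krt6a, at 266 and 175 for control and 1331 and 432 in Ovol2 BT (1.74, adjusted p = 0.171), and Krt17, at 0.17 (adjusted p = 0.729), were not called. Krt6a was called with control replicate 1 (2.03, adjusted p = 1.55e-06), control replicate 2 (1.46, adjusted p = 0.00369) or Ovol2 BT replicate 2 (2.54, adjusted p = 0.00101) left out and under junction centring (1.97, adjusted p = 4.84e-07). With Ovol2 BT replicate 1 left out Krt6a had a difference of 0.95.

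None of the remaining S100a genes was called. S100a16 had intensities of 3035 and 2472 for control and 2249 and 1736 in Ovol2 BT (-0.47, SE 0.21, adjusted p = 0.482), with no overlap. S100a14, which lies beside it, had 1033 and 1095 against 1024 and 708 (-0.32, SE 0.23). S100a10, the partner of annexin A2, had 5803 and 5588 against 5144 and 5553 (-0.09, 95% interval -0.425 to 0.24). S100a11 was at 8378 and 7097 against 7353 and 6107, and a dimmer probe set for it gave -0.21 where this one gave -0.20. The difference was 0.21 for S100a13, 0.22 for S100a5, 0.12 for S100a7a, 0.05 for S100a3, -0.07 for S100a6 and -0.24 for S100a4. S100a2, at 40.0 and 31.7 against 46.9 and 49.3, was not tested. Of 4 genes with S100 symbols outside the cluster (S100b, S100g, S100z and S100pbp), 0 were called.

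**Figure D4:**
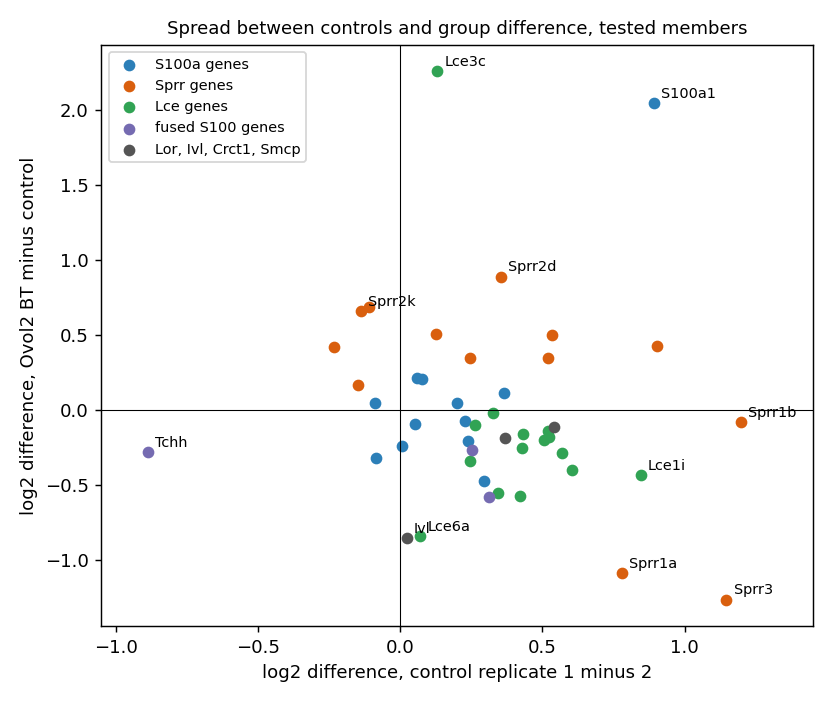
Each point is 1 of the 46 tested members: the log2 difference between control replicates 1 and 2 on the x axis and the log2 difference between Ovol2 BT and control on the y axis. Lce3c lies high with little spread between controls (0.13), S100a1 high with a spread of 0.89, Ivl and Lce6a low with little spread, and Sprr1b and Sprr3 at the right with the widest gaps between controls, 1.20 and 1.15.

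The group difference was larger than both replicate differences in 16 of 46 members, or 34.8%, beside 29.8% of all genes tested. Control replicate 1 was above control replicate 2 in 39 of 46 members, with a median difference of 0.30 against 0.05 for all genes, and Ovol2 BT replicate 1 was above replicate 2 in 36, with a median of 0.26 against 0.02. The members were thus brighter in the arrays numbered 1 of both groups.

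Genes outside the complex that build or cross-link the envelope held 1 call. Of 36 tested partner genes, 31 were below 0, beside 55.6% of all genes, and the median was -0.27 beside -0.04. The test called 1 partner gene lower, beside 0.348% of all genes. That gene, Tgm3, encodes a transglutaminase that links Sprr proteins and loricrin, and had intensities of 1430 and 1473 for control and 334 and 432 in Ovol2 BT (-1.89, SE 0.22, 3.71-fold, adjusted p = 0.00602). Dsg1b, a desmoglein gene, was at -1.09 (SE 0.21, adjusted p = 0.0589). It was at -1.22 without Ovol2 BT replicate 2 and was called with the lowest 50% of genes left out (adjusted p = 0.0317). Abca12, the lipid transporter of lamellar granules, was at -0.68 (SE 0.215, adjusted p = 0.305) and Klk6, a kallikrein protease gene, at 0.71 (SE 0.19, adjusted p = 0.181), with a call for Klk6 under junction centring (0.94, adjusted p = 0.0065). Without control replicate 1 the partner list had 18 genes above 0 and 18 below (median -0.002). Under junction centring 16 were above and 20 below (median -0.04), and without control replicate 2 the median was -0.55. The partner genes Ppl and Evpl stand in the junction list as well. Of 3 tested genes of the cluster that are not members by symbol, Kprp was at -0.27, Pglyrp3 at 0.54 and Pglyrp4 at 0.16, and 0 were called.

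Factors known to regulate the complex were not called. Of 40 tested regulators, 32 had lower values, beside 55.6% of all genes, and 8 higher, with a median of -0.27, and under junction centring 24 were lower and 16 higher, with a median of -0.045. At an unadjusted p under 0.05 there were 7 lower and 1 higher. Tfap2c, an AP-2 factor of early epidermis, had a difference of -0.96 (SE 0.24, adjusted p = 0.146). Leaving out Ovol2 BT replicate 1 gave -1.21, and leaving out Ovol2 BT replicate 2 gave -0.72. Prdm1, a repressor of terminally differentiating cells, was at -0.70 (SE 0.23, adjusted p = 0.330) and the nuclear receptor gene Rora at -0.56 (SE 0.22, adjusted p = 0.422). Cebpa, which acts in keratinocytes and in fat cells and is itself in the adipocyte list above, was at 0.69 (SE 0.21, adjusted p = 0.271). It was called under junction centring (0.92, adjusted p = 0.0253). Klf4 and Grhl3, factors of barrier formation, were at -0.46 and -0.23, and the AP-1 genes Fosl1, Junb and Fos at 0.14, -0.20 and -0.61. Among partners of S100 proteins, 0 of 8 tested were called, with Anxa1 at -0.83 (SE 0.28, adjusted p = 0.335) and Anxa2 at -0.28. Anxa1 was at -1.14 without control replicate 1. Ahnak was at -0.20 and Ager, the receptor for advanced glycation end products, at 0.12.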

How the data were processed

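Each probe set has an intensity on a linear scale, as deposited by the authors. The submitters' processing notes name PLIER 2.0 and Affymetrix Expression Console 1.1.1, while for background correction and normalization the method is not given in the sources used here. Members, lists and alternatives were chosen with earlier results of these data known. Genes were named by the platform annotation, using the 21789 of 35557 probe sets that name 1 gene; for genes with several, the brightest was taken. All 56 members matched RefSeq by Entrez ID. Of 64 RefSeq genes fitting the symbols, 8 had no probe set of their own, 4 of which share one. Values were analysed as log2(intensity + 16), which understates changes of dim genes. After leaving out the lowest 25% of genes, 14953 were fitted with limma 3.58.1 in R 4.3.3 (two-sided test of the group term with a variance trend and Benjamini-Hochberg adjustment; degrees of freedom 2 residual, 6.95 prior) and the fit was tested on simulated data. Nothing says that arrays come from separate litters, and their number limits precision. Values under alternatives were computed for members with an unadjusted p under 0.05, a fixed set of members, and called genes and the 4 with the smallest p of the partner, regulator, S100 partner and activated keratin lists; other genes shown were chosen after their values were seen. Promoter stretches came from RefSeq (GRCm38.p6), aligned globally with Biopython 1.88 (match 1, mismatch -1, gap opening -3, extension -0.5). Figures used Python 3.11.15 and matplotlib 3.10.9.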

Additional observations from a re-analysis of the deposited data

Results flagged for a closer look

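The probe set assigned to Lce3a, Lce3b, Lce3c, Lce3d, Lce3e and Lce3f together is not part of the comparison of single genes. It had 501 and 549 for control and 1124 and 1067 in Ovol2 BT, a log2 difference of 1.04 (2.06-fold), with both Ovol2 BT arrays above both controls. The difference was not tested.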

How the results depend on the processing

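Lce3c and S100a1 kept their calls and direction under all 14 alternatives. The count of called members was 6 with arrays centred on 19 cell junction genes and 3 to 5 with 1 array left out, where a lone array is assumed to vary like the others and, without either control, limma took the prior degrees of freedom as infinite. Same-numbered arrays deviated together (correlation 0.41 across genes), but nothing in the labels pairs them; with the replicate number as a block there were 9 called members, 652 genes and 47 genes of the fixed lists, against 2, 144 and 22 without. The 7 members gained under the block were Ivl, Lce1b, Lce6a, Sprr1a, Sprr2d, Sprr2k and Sprr3, and of the other named genes Anxa1, Cebpa, Dsg1b, Klk6, Krt6a, Prdm1 and Tfap2c were called there and not without it. All genes called numbered 522 under junction centring (439 higher and 83 lower, against 92 and 52), where prior degrees of freedom rose from 6.95 to 107, and 204 to 351 with 1 array left out; the cause was not tested. The median of the members was 0.10 under junction centring, where that of all genes was 0.18, and -0.26 to 0.056 with 1 array left out. As deposited, 16 of the 18 junction genes tested were below 0 and the median of all genes was -0.04. Junction centring therefore shifts the differences of all genes upwards. Of the 34 named genes these changed sign: Lce1a1 at 0.031 under quantile normalization, 0.007 under median centring, 0.21 under junction centring and -0.18 to 0.15 with 1 array left out; S100a8 at -0.029 under quantile normalization and -0.049 to 0.15; Sprr1b at 0.14 under junction centring and -0.68 to 0.52; and, under junction centring, Lor at 0.037, S100a11 at 0.022 and Ahnak at 0.025. No called value among the named genes lost its call, and 35 of 470 values under alternatives gained one. Without control replicate 1 Sprr3 fell below the level filter and has no value. Dim members cannot be judged: 10 of 56 were too low to be tested.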
